A study of Mus musculus with 40 samples.

Results

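Restimulated iTregs were compared with activated conventional T cells (Tconvs) in mouse RNA-seq libraries, 3 of each, chosen by their labels. These 6 samples belong to a series of 40 samples, of which 24 are RNA-seq. Resting iTregs and resting Tconvs, 3 samples each, entered the same fit so that every level could be read against the unstimulated state of its own cell type. The question was how far iTregs that meet their antigen receptor signal again take on, or lack, the effector program of an activated Tconv.

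All cells came from mice on a C57BL/6 background that carry a fluorescent reporter of Foxp3, the transcription factor that defines Tregs. Tconvs were CD4+ cells without the Foxp3 GFP reporter, taken from spleens of mice aged 2 to 4 months, and the activated samples had then been stimulated through their antigen receptor. iTregs are Tregs made in culture. Naive CD4+ cells of mice aged 6 weeks were stimulated for 4 days through CD3 and CD28 with TGF-β and IL-2, sorted by their GFP or RFP reporter, kept for 1 day with IL-2 (resting), and then stimulated again through CD3 and CD28 (restimulated). The labels give a cell type and a state and nothing more, and the time for which the RNA-seq samples were stimulated, and the agent and dose used on Tconvs, are not given in the sources used here. The cell type therefore cannot be told apart from the age of the mice, the days in culture or the exposure to TGF-β and IL-2. Nor can it be told apart from a prior round of stimulation or an unequal time of stimulation. The same holds for the starting cells: those of iTregs were naive, and the sources used here describe no naive sort of Tconvs. The iTregs had been sorted for the reporter before restimulation, and the sources used here describe no second sort for Foxp3 after it.

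An activated CD4+ cell is known for a set of coupled changes. It makes cytokines and membrane ligands that act on other cells, it turns on transcription factors downstream of its antigen receptor, it divides, and it shifts its metabolism to glycolysis. Which cytokines it makes depends on its lineage: Th1 cells follow T-bet and make interferon-γ, Th2 cells follow GATA3 and make IL-4, Th17 cells make IL-17, and follicular helper cells (Tfh) make IL-21. Tregs hold much of this in check, and Foxp3 is known to repress several effector cytokine genes.

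The values are normalized counts, which are reads on a gene divided by a size factor of the library. The 12 libraries of the 4 groups held 9808711 to 15685234 reads on genes, and 3 reads, the floor below which a gene was not told from absence, were worth 2.12 to 3.36 normalized counts. This floor covers counting error only. Genes of mitochondrial DNA took 1.81 to 1.91 percent of reads in restimulated iTregs and 3.07 to 3.32 percent in activated Tconvs, and ribosomal protein genes 12.5 to 12.8 and 14.6 to 16 percent. The part of these shares in the results was not tested.

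The cell type markers were checked next. Of 9 T cell markers, 2 were lower in restimulated iTregs, *Cd247* and *Cd3d*, and *Cd4* stood at 4319 ± 296 normalized counts in activated Tconvs and 4492 ± 116 in restimulated iTregs (mean ± SD, n = 3, as throughout). The defining B cell genes *Ms4a1* and *Pax5* were at or under the floor in all 12 libraries, as were the natural killer cell genes *Klra8* and *Klra4* and the myeloid genes *Cd14* and *Spi1*. The summed level of the 7 B cell markers was 18.9 to 27.6 in activated Tconvs and 115 to 126 in restimulated iTregs, most of it *Ebf1*, at 93.7 ± 3.79 in the latter. For the 6 natural killer cell markers the sums were 29.6 to 39.7 and 76.2 to 101, for the 7 myeloid markers 101 to 119 and 30.9 to 44.3, for the 5 dendritic cell markers 26.9 to 42.5 and 16.8 to 26.2, for the 5 erythroid markers 0.708 to 1.8 and 4.54 to 7.84, and for the 2 CD8 markers 109.5 to 123 and 99 to 117. Most of the myeloid sums was *Cd68*, at 101 ± 7.79 in activated Tconvs and 33.6 ± 6.15 in restimulated iTregs. *Zbtb46*, the 1 dendritic cell marker tested, was lower (log2 difference -0.75). Of 2 natural killer cell markers tested, 1 was higher in restimulated iTregs. In activated Tconvs all natural killer cell markers but *Klrk1* were at or under the floor. The 4 γδ T cell genes of the list had no values under their listed names, so these cells could not be checked. These are bulk libraries, in which fewer cells of a type and less RNA per cell cannot be told apart.

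*Foxp3* gave 35.9, 34.5 and 31.1 normalized counts in the 3 activated Tconv libraries and 705, 695 and 731 in the 3 restimulated iTreg libraries, a log2 difference of 4.35 (SE 0.11, adjusted p = 2.24e-13). Resting iTregs held 1178, 1338 and 1324. The restimulated libraries were thus above every Tconv library and below every resting iTreg library. About 31.5 percent of the annotated exon bases of *Foxp3* (GRCm38, chrX:7573644-7595245) are shared with overlapping genes, so reads there cannot be assigned to one gene with certainty in libraries without strand.

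The 2 states differed widely. Of 11335 genes tested, 2818 were higher in restimulated iTregs than in activated Tconvs (24.9 percent) and 2354 were lower (20.8 percent). A gene counted when its adjusted p was under 0.05 and its log2 difference exceeded 0.5 in either direction. The median log2 difference of all genes tested was 0.01. Large differences were mostly in one direction: 970 of the higher genes and 260 of the lower genes differed by more than 2 on the log2 scale. The split depended on scaling. Under quantile normalization the median moved by -0.12, and 2332 genes were higher and 3078 lower, so that higher genes made up 43.1 percent of the changed genes in place of 54.5 percent.

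Restimulated iTregs were no nearer to activated Tconvs than resting iTregs were. The Euclidean distance over all genes tested from the mean of the activated Tconvs was 145.8, 146.4 and 145.2 log2 units in the 3 restimulated iTreg libraries and 141.8, 141.3 and 138.9 in the 3 resting ones. The restimulated libraries were the farther, with no overlap (means 146 ± 0.569 and 141 ± 1.58, difference 5.11, two-sided exact permutation p = 0.1, the smallest that 3 against 3 allows). On the line that joins the resting to the activated Tconv mean, with 0 and 100 percent at its ends and a length of 128 log2 units, resting iTregs already stood past the activated end, at 115.6, 114.3 and 112.0 percent. Restimulated iTregs stood at 121.7, 122.2 and 122.3 percent, farther along in every library (difference 8.1 percentage points, exact permutation p = 0.1). Off that line, restimulated iTregs were 143 ± 0.605 log2 units away and resting iTregs 139.5 ± 1.31, in each case longer than the line itself.

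**Figure D1:**
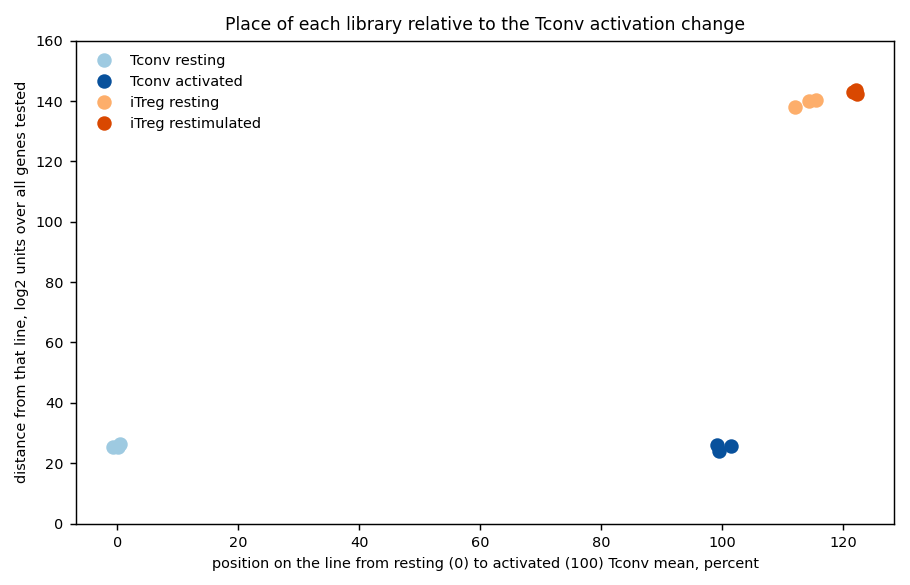
Each point is 1 library of the 4 groups. The x axis is its position, in percent, on the line from the mean of resting Tconvs to that of activated Tconvs, and the y axis its distance from that line in log2 units over the 11335 genes tested. Resting iTregs sit at 112.0 to 115.6 percent and restimulated iTregs at 121.7 to 122.3 percent, both far above the Tconv libraries on the y axis.

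The 5 genes with the largest rises among those with no overlap between the groups were *Il24*, *Gap43*, *Vldlr*, *Scd1* and *Gja1*. *Il24* (GRCm38, chr1:130882074-130887454), a cytokine of the IL-10 family, gave 0, 0.862 and 2.83 normalized counts in activated Tconvs and 3071, 2719.8 and 2713 in restimulated iTregs. *Gap43*, a gene best known from growing axons, had no read in activated Tconvs and 566, 424 and 441 normalized counts in restimulated iTregs, at least 193-fold higher when Tconvs are set at the floor of 3 reads per library. *Vldlr*, a lipoprotein receptor, also had no read in activated Tconvs and gave 367, 378 and 459 in restimulated iTregs, at least 162-fold higher. *Scd1*, a fatty acid desaturase, was at 1.16 ± 1.31 against 549 ± 27.5, and *Gja1*, a gap junction protein, at 3.37 ± 1.77 against 1163 ± 27.5. Activated Tconvs were thus at or near 0 for these 5 genes. The 5 largest falls were all interferon-inducible genes, *Ifit1bl1*, *Ifi208*, *Ifit3*, *Ifi209* and *Ifi214*, and are described with that group.

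The gene lists that follow are described by counts, to be read beside the shares of 24.9 and 20.8 percent among all genes tested. Of 265 list genes tested, 12 would not have passed the filter on low values in Tconv libraries alone and 13 in iTreg libraries alone. Such genes tend to differ through the way they were selected, so the counts support no statement on a list as a whole.

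**Figure D2:**
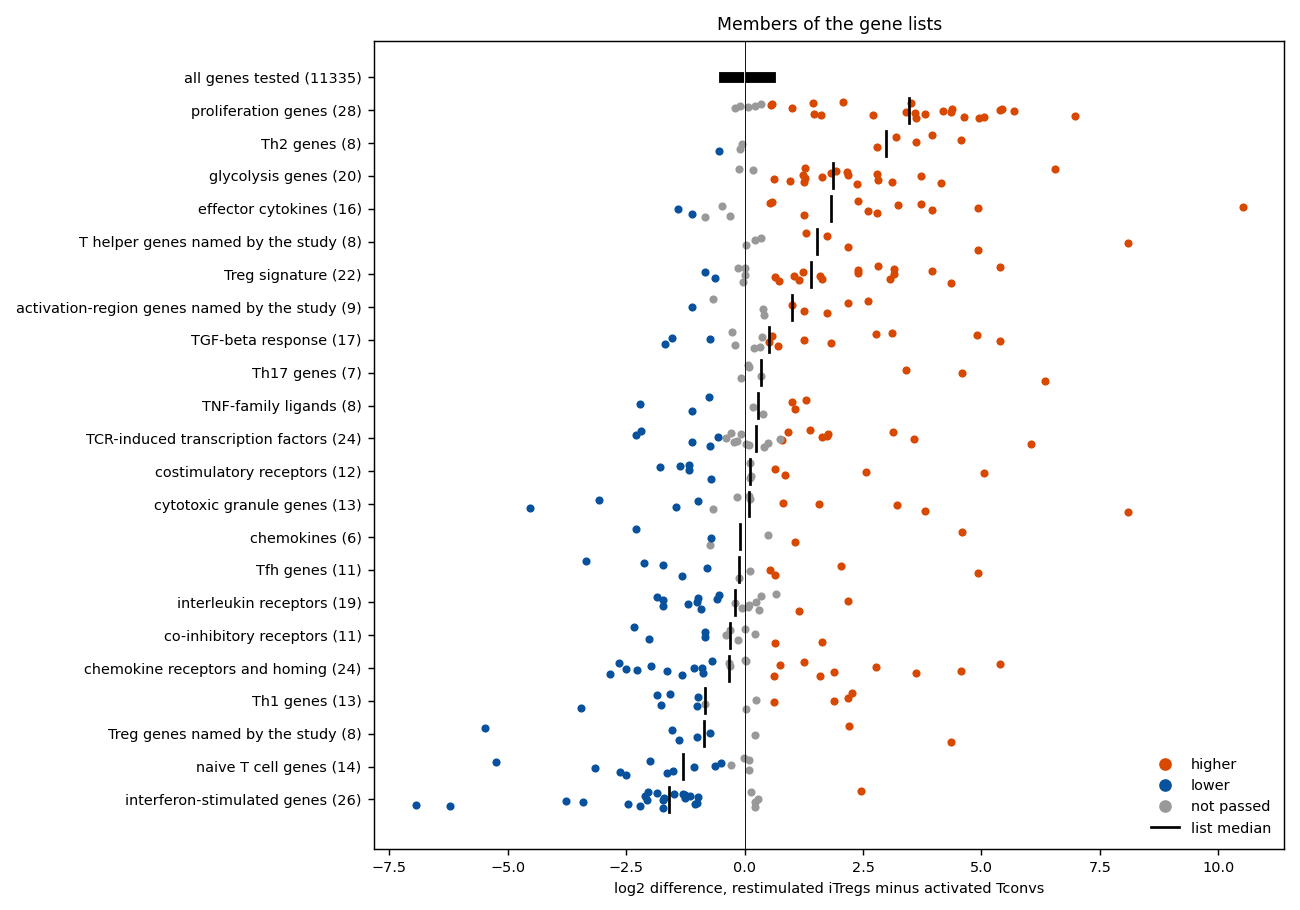
Each row is a gene list with the number of its members tested, and each point 1 member, at its log2 difference between restimulated iTregs and activated Tconvs (x axis). The thick bar at the top spans the interquartile range of all 11335 genes tested. Most proliferation and glycolysis genes lie to the right of 0 and most interferon-stimulated and naive T cell genes to the left, with list medians of 3.46, 1.87, -1.60 and -1.30.

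Several cytokine genes were far higher in restimulated iTregs, among them *Il24*, *Il21*, *Lif* and *Il10*. Of 27 effector cytokine genes, 16 passed the filter on low values, and of these 11 were higher and 2 lower. The filter bears on this count, since 6 of the 16 would not have passed it on Tconv libraries alone and 1 on iTreg libraries alone. The median log2 difference of 1.82 was not stable: it was 0.93 and 0.92 without restimulated iTreg libraries 2 and 3, and 0.53 with no filter. Quantile normalization gave 9 higher and 4 lower. *Il21* (chr3:37222759-37232636), which supports B cells and cytotoxic cells, gave 29.6, 31.9 and 31.1 in activated Tconvs and 936, 893 and 1084 in restimulated iTregs, a log2 difference of 4.93 (SE 0.14, adjusted p = 1e-12). Resting iTregs were between, at 242 ± 19.5. *Il10*, an anti-inflammatory cytokine of Tregs and other T cells, gave 9.88, 7.76 and 9.91 against 186, 139 and 148, again with no overlap, for a log2 difference of 3.96 (SE 0.42, adjusted p = 1.17e-06). *Lif*, a cytokine of the IL-6 family, was at 95.2, 91.4 and 107 against 1334, 1283 and 1299.7, and at 1223 ± 96.5 in resting iTregs. *Il4*, *Il9* and *Csf2*, cytokines of helper lineages, were higher by 2.79, 2.60 and 3.24 on the log2 scale, but all were low. Their means were 27 ± 3.33, 33 ± 5.08 and 11.7 ± 1.19 normalized counts in restimulated iTregs.

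The genes of interferon-γ and TNF did not pass in the limma fit of the 12 libraries. *Ifng* (chr10:118441046-118445892), which encodes interferon-γ, gave 37.7, 28.5 and 26.2 in activated Tconvs and 13.1, 19.1 and 18.2 in restimulated iTregs, a log2 difference of -0.84 (SE 0.54, adjusted p = 0.186). The Tconv libraries were all above the iTreg libraries, but the adjusted p missed the threshold. The count of lower effector cytokine genes was 3 in place of 2 by edgeR, with only the 6 libraries compared, and with no filter. It was 1 with all 24 libraries. The count does not name the gene gained, so it gives no call for *Ifng*. Calls near the threshold thus depended on the method. About 25.9 percent of the annotated exon bases of *Ifng* overlap other genes. *Tnf* gave 576, 499 and 521 against 456, 410.2 and 419.6, a log2 difference of -0.31, below the size threshold. 2 genes were lower. *Ltb*, which encodes lymphotoxin β, was at 7233 ± 1720.1 against 3409 ± 994 (log2 difference -1.10), a call that was lost when all 24 RNA-seq libraries entered the fit. *Il16*, a chemoattractant for CD4+ cells, was at 4219 ± 110.2 against 1599 ± 22.3. The other 11 genes were too low to test, among them *Il2*, *Il17a* and *Il22*, named here after their values were seen. *Il2* stood at 3.23 ± 0.464 in activated Tconvs and 4.35 ± 0.28 in restimulated iTregs.

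Chemokines and membrane ligands moved in both directions. Of 6 chemokines tested, 2 were higher and 2 lower (1 and 3 under quantile normalization). *Ccl20*, the ligand of CCR6, gave 8.08, 6.04 and 4.25 in activated Tconvs and 156, 161 and 183 in restimulated iTregs. *Ccl4* was higher by 1.06 on the log2 scale (SE 0.38), a call lost under quantile normalization, with a pseudocount of 0.1, and without restimulated iTreg library 2 or activated Tconv library 3. *Ccl5*, a chemokine of effector and memory cells, was lower at 92.4 ± 9.4 against 151 ± 15.5, and *Cxcl10*, an interferon-induced chemokine, at 3.71 ± 1.19 against 22.4 ± 6.88. Of 8 TNF-family ligands tested, 3 were higher and 3 lower. *Fasl*, the death ligand, was at 63.8, 67.3 and 67.9 in activated Tconvs and 168, 151 and 173 in restimulated iTregs (log2 difference 1.29, SE 0.18, adjusted p = 2.34e-05). *Cd40lg*, through which helper cells activate B cells and dendritic cells, was lower, at 107, 117 and 120.3 against 69.5, 62.8 and 71.7. *Tnfsf8* (CD30 ligand) and *Tnfsf11* (RANKL) were lower too, with log2 differences of -1.11 and -2.22.

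Granule genes split by gene. Of 13 tested, 5 were higher and 4 lower. *Gzma* (chr13:113093825-113100981), which encodes granzyme A, gave 3.59, 7.76 and 9.2 normalized counts in activated Tconvs and 2057, 2035 and 1995 in restimulated iTregs, and resting iTregs already held 788 ± 23.4. The log2 difference was 8.09 (SE 0.22, adjusted p = 4.7e-13). *Gzmb*, granzyme B, gave 1127, 1001 and 1199 against 15548, 14984 and 15658, a log2 difference of 3.80 (SE 0.18), and was already at 9135 ± 664 in resting iTregs. *Nkg7* and *Ctsw*, genes of cytotoxic lymphocytes, were higher by 3.22 and 1.57 on the log2 scale. In the other direction, *Prf1*, which encodes the pore-forming protein perforin, gave 47.6, 50 and 41.7 against 13.1, 19.1 and 17.3, a log2 difference of -1.45 (SE 0.21, adjusted p = 3.21e-05). *Gzmk* gave 34.1, 25 and 26.2 against 1.01, 0 and 0, with 1 read over the 3 iTreg libraries. *Serpinb9*, an inhibitor of granzyme B, was lower, at 1351 ± 117 against 158 ± 3.98. Granzymes A and B were thus far above activated Tconvs while perforin was below them. Both *Prf1* and *Gzmk* were highest in resting Tconvs, at 233 ± 12.3 and 239 ± 41.

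**Figure D3:**
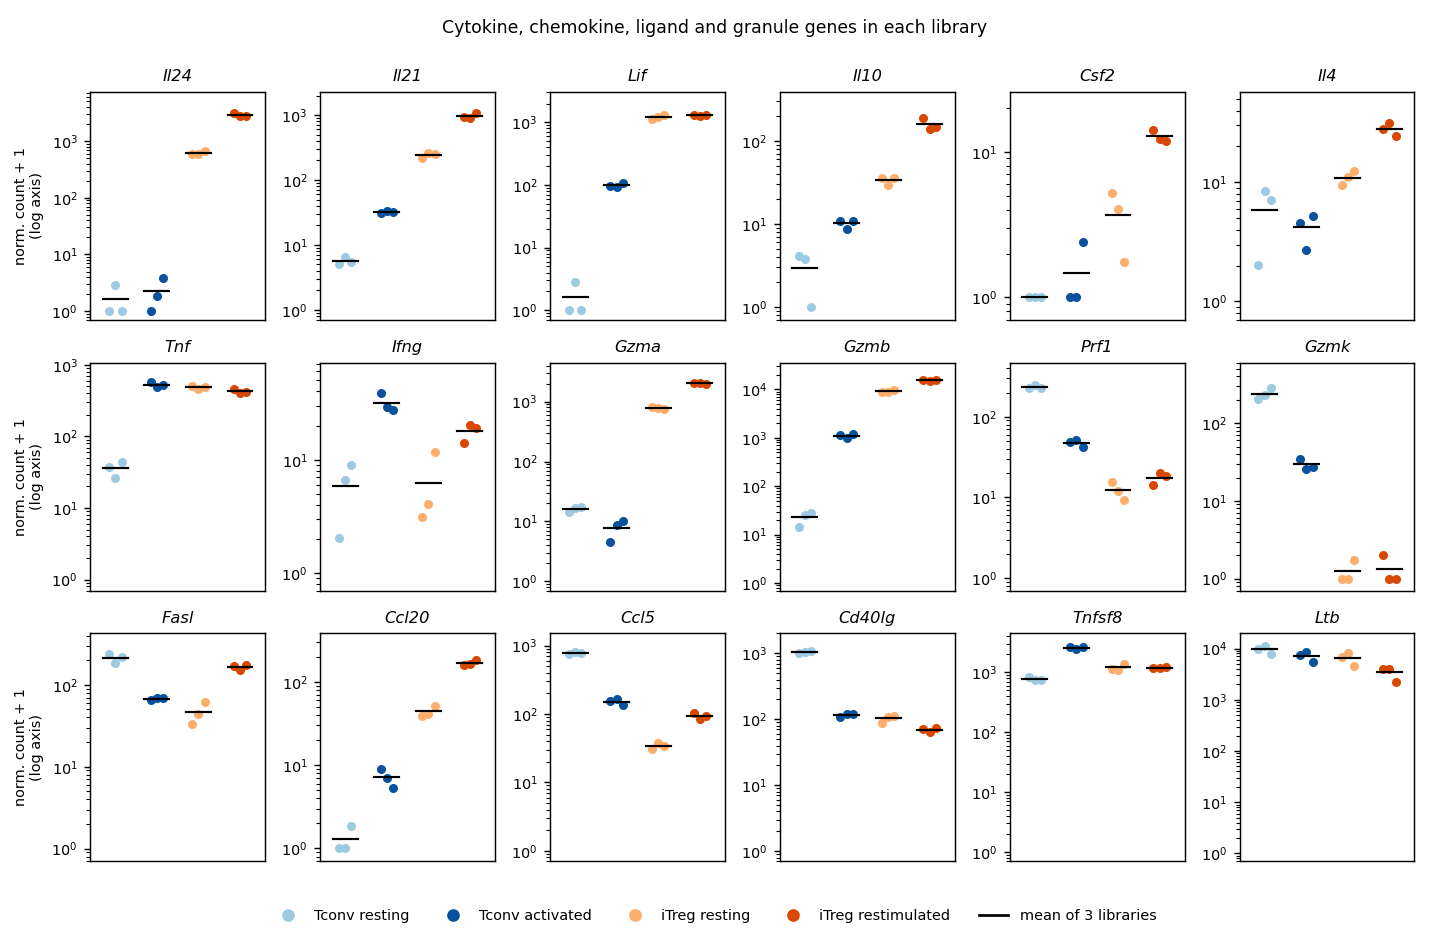
Each panel is a gene and each point 1 library, with the normalized count plus 1 on a log axis and the mean of the 3 libraries as a line. From *Il24* to *Il4* and for *Gzma*, *Gzmb*, *Fasl* and *Ccl20* the restimulated iTreg points lie above the activated Tconv points, and for *Prf1*, *Gzmk*, *Ccl5*, *Cd40lg*, *Tnfsf8* and *Ltb* below them.

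Th1 genes were mixed, and the lineage factor itself did not pass. *Tbx21*, which encodes T-bet, gave 159.8, 236 and 120.3 in activated Tconvs and 175, 226 and 123 in restimulated iTregs, a log2 difference of 0.03 (SE 0.28), with overlap. Of 13 Th1 genes tested, 4 were higher and 6 lower (median -0.84, and -0.40 with no filter). The number lower was 7 by edgeR, with only the 6 libraries compared, and under quantile normalization. *Eomes* (chr9:118478212-118486132), the T-box factor related to T-bet, was far lower, at 295, 306 and 277 against 27.2, 19.1 and 32.7 (log2 difference -3.46, SE 0.22, adjusted p = 4.58e-09). *Stat4*, which relays IL-12, was at 1544 ± 68.8 against 451 ± 24.6, while *Il12rb2* (chr6:67291318-67376188), the inducible chain of the IL-12 receptor, was higher, at 1047, 1028 and 1035 against 4260.4, 4793 and 5176 (log2 difference 2.19, SE 0.10, adjusted p = 1.84e-10). About 40 percent of the annotated exon bases of *Il12rb2* and 26.7 percent of those of *Stat4* overlap other genes. *Runx3*, a partner of T-bet, was higher by 2.28 on the log2 scale, and *Il18rap*, a chain of the IL-18 receptor, was lower (log2 difference -1.86). The inducible chain of the IL-12 receptor was thus above the activated Tconv level, and the signal transducer behind it was below.

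Genes of other helper lineages were present in part. Of 8 Th2 genes tested, 5 were higher, with *Ccr8* at 55.7 ± 2.48 against 1332 ± 19, *Ccr4* at 268 ± 3.89 against 3292 ± 150.5, *Nfil3* at 40.3 ± 7.41 against 631 ± 54.6 and *Maf* at 101 ± 9.33 against 929 ± 78.5. *Ccr4* and *Ccr8* are chemokine receptors that Tregs use as well, and *Nfil3* and *Maf* are transcription factors of cytokine genes. The Th2 factor *Gata3* was lower, at 1922 ± 137 against 1331 ± 110.1 (log2 difference -0.53). That call was lost without restimulated iTreg library 3 or activated Tconv library 2. *Il17a* and *Il17f*, the cytokines of Th17 cells, were at or under the floor in both groups. Of 11 Tfh genes tested, 4 were higher and 5 lower (median -0.12), and under quantile normalization 2 and 6 (median -0.81). *Bcl6*, the Tfh factor, was low in both groups (14.1 ± 3.78 and 12.7 ± 1.45) and *Slamf6*, a receptor for T cell and B cell contact, was lower, at 1639.7 ± 152 against 159 ± 16.5. Restimulated iTregs thus held high *Il21* and low *Bcl6*.

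Transcription factors that follow the antigen receptor differed in both directions. Of 24 tested, 9 were higher (37.5 percent, beside 24.9 percent of all genes tested), 5 lower (20.8 percent, the same share as in all genes) and 10 did not pass (median 0.25, and 0.01 under quantile normalization). *Batf3* (chr1:191097847-191108945), a partner of AP-1 factors, gave 8.98, 9.49 and 18.4 against 847, 835 and 808, a log2 difference of 6.04 (SE 0.28, adjusted p = 1.27e-10). *Bhlhe40*, a regulator of cytokine production, gave 340.3, 341 and 379 against 2892, 3062 and 3340.4. *Fosl2* and *Nfatc2*, an AP-1 subunit and an NFAT factor, were higher by 3.58 and 1.76 on the log2 scale. *Irf4*, a dose-dependent sensor of receptor signal, stood at 4186, 4235 and 4507 against 5893, 5634 and 5622, all iTreg libraries the higher, but its log2 difference of 0.41 (SE 0.09, adjusted p = 0.00143) was below the size threshold. *Rel*, the NF-κB subunit needed for Treg induction, was lower, at 825, 743 and 825 against 177, 146 and 164 (log2 difference -2.29). *Tox* and *Nr4a3*, which are linked to prolonged receptor signal, were lower, with log2 differences of -2.19 and -1.12.

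Surface receptors also differed in both directions. Among 12 costimulatory receptors, 4 were higher: *Tnfrsf8* (CD30) at 64.5 ± 4.03 against 2184 ± 52.5, *Tnfrsf9* (4-1BB) at 877 ± 50.5 against 5161 ± 99.6, *Tnfrsf4* (OX40) at 3892 ± 364 against 7019 ± 834 and *Tnfrsf18* (GITR) at 5166 ± 355 against 8119 ± 999.5. The 5 that were lower included *Tnfrsf25* (DR3), *Cd27*, *Cd226* and *Tnfrsf14* (HVEM), with log2 differences of -1.78, -1.37, -1.17 and -1.17. The TNF receptor family, to which all of these but *Cd226* belong, thus had members in both directions. Among 11 co-inhibitory receptors tested, *Ctla4* and *Pdcd1* were higher by 1.64 and 0.63 on the log2 scale, and *Cd96*, *Havcr2*, *Tigit* and *Cd200r1* were lower. *Lag3* did not pass, at 1457 ± 21.1 and 1323 ± 150.2. Of 19 interleukin receptor genes tested, 9 were lower and 2 higher, the latter being *Il12rb2* and *Il2ra*. *Il2ra*, the high-affinity IL-2 receptor chain, gave 4315, 4290.0 and 4447 against 9371, 9601 and 9824, whereas the shared chain *Il2rg* was lower (log2 difference -0.93). *Il15ra* was lower, at 360.4 ± 21.8 against 109.9 ± 16.8.

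Most naive T cell genes of the list were lower in restimulated iTregs. Of 14 naive T cell genes, 10 were lower and 0 higher by limma, with a median of -1.30. The count of higher members was 0 at an unadjusted p below 0.05, 0 by edgeR and 0 by DESeq2. *Ccr7*, the chemokine receptor for entry into lymph nodes, gave 39850, 37680.1 and 41895 in activated Tconvs and 13066, 12226 and 12790.4 in restimulated iTregs, a log2 difference of -1.65 (SE 0.06, adjusted p = 1.13e-11). *Tcf7*, the factor TCF-1 of naive and memory cells, gave 3363, 3382 and 3565 against 573, 576 and 524, again with no overlap. *Klf2*, a factor of quiescent T cells, and *Dapl1* were lower, with log2 differences of -3.16 and -5.25. *Il7r* did not pass, at 649 ± 42 and 687 ± 22.2. Homing genes as a whole split, with 9 higher and 11 lower of 24 tested. *Itgae*, the TGF-β-induced integrin CD103, was at 2.48 ± 0.983 against 142 ± 21. *Itga4*, *Cxcr6* and *Gpr183*, which take part in the positioning of cells, were lower, with log2 differences of -2.66, -2.85 and -1.97. Their means were also lower in activated than in resting Tconvs, at 660 against 4944, 287 against 786 and 376 against 4429.

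Most Treg signature genes other than *Foxp3* were also above activated Tconvs. Of 22 Treg signature genes, 16 were higher and 2 lower (median 1.41). *Lrrc32*, which holds latent TGF-β on the Treg surface, was at 90.9 ± 12.8 against 766 ± 79, and *Entpd1* and *Nt5e*, which together turn ATP into adenosine, were higher by 3.16 and 2.39 on the log2 scale. *Ikzf2* (Helios), a factor of thymic Tregs, did not pass, at 146, 119.9 and 146 against 149, 142 and 112, with overlap. *Nrp1* and *Tigit* were lower, with log2 differences of -0.63 and -0.83. Of 17 genes of the TGF-β response, 9 were higher and 3 lower, the latter *Tgif1* and the receptors *Tgfbr1* and *Tgfbr2*. The Treg genes named by the study behaved unlike the signature: 5 of 8 were lower and 2 higher, *Foxp3* and *Nlrp6*, the second not called under quantile normalization. These were picked by the study on the data of this series and are no independent evidence. *Id3* gave 336, 267 and 342 against 124, 113 and 119.9, *Tgfbr2* 739.9, 750.4 and 712 against 235, 254 and 265, and *Ms4a4b* 17559.5, 15707 and 18127 against 422, 338 and 389.6. *Il10rb* and *Tgfbr1* were lower too, at 800.0 ± 40.9 against 400.2 ± 34.3 and 522 ± 13 against 317 ± 36.5, and *Sema4a* did not pass (log2 difference 0.22). *Nlrp6* was low throughout, at 4.72 ± 0.803 in restimulated iTregs.

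**Figure D4:**
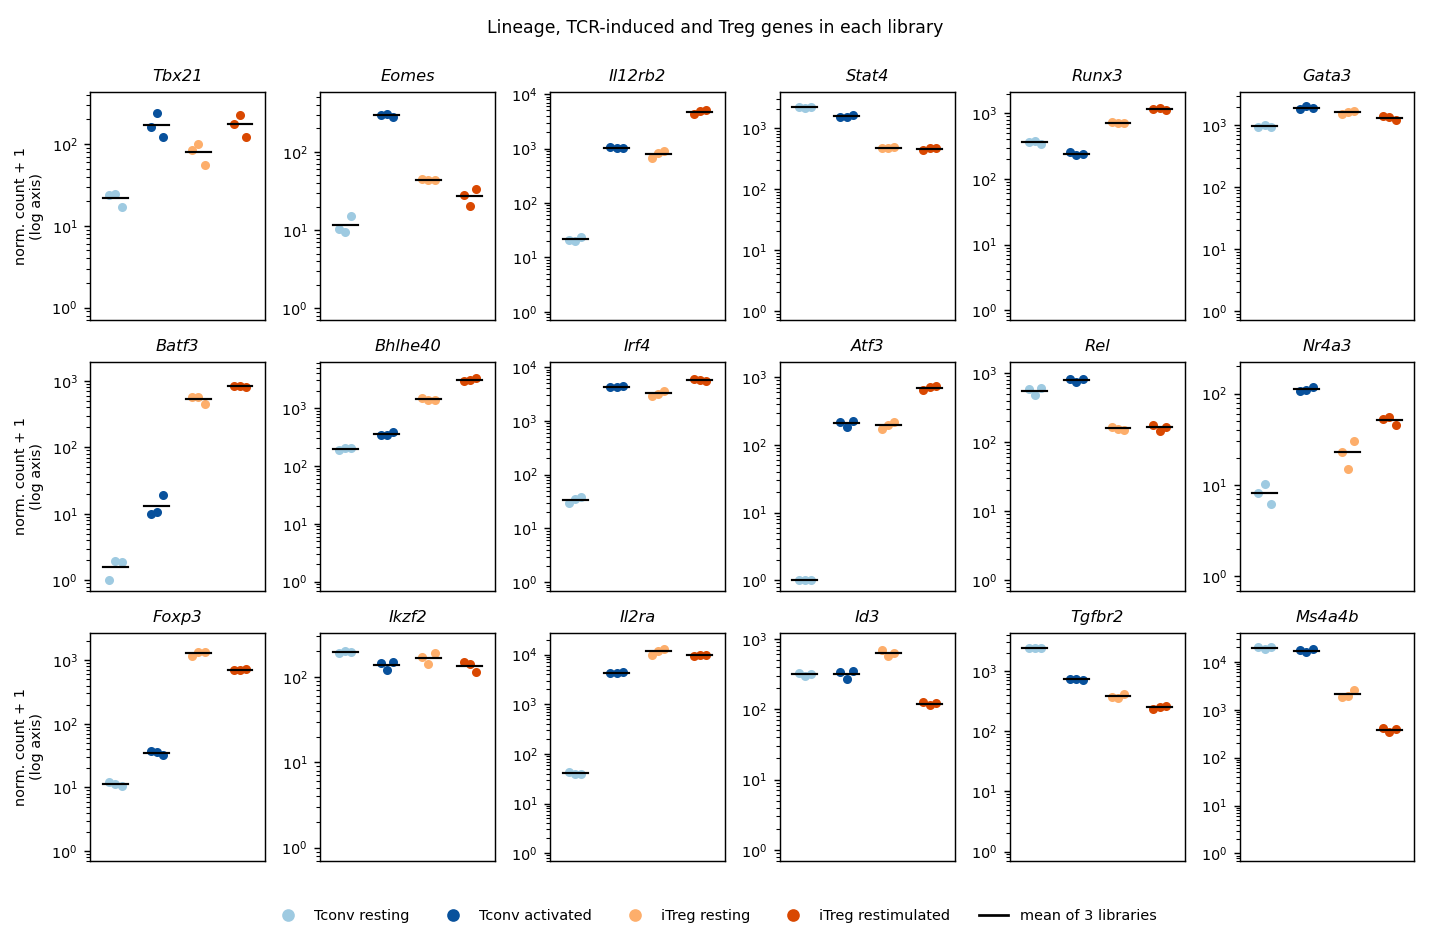
Each panel is a gene and each point 1 library, with the normalized count plus 1 on a log axis and the mean of the 3 libraries as a line. *Tbx21* and *Ikzf2* overlap between activated Tconvs and restimulated iTregs, *Eomes*, *Stat4*, *Rel*, *Id3*, *Tgfbr2* and *Ms4a4b* are lower in restimulated iTregs, and *Runx3*, *Batf3*, *Bhlhe40*, *Atf3*, *Foxp3* and *Il2ra* are higher.

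Most genes of the interferon-stimulated list, which cells turn on under interferon through STAT and IRF factors, were lower in restimulated iTregs. Of 26 measured, 21 were lower and 1 higher, with a median log2 difference of -1.60. The filter bears on this count, since 4 of the 26 would not have passed it on iTreg libraries alone. Such genes tend to be lower through the way they were selected. *Ifit1*, an antiviral RNA-binding protein, gave 1129.6, 1054 and 1268 normalized counts in activated Tconvs and 21.2, 8.97 and 15.4 in restimulated iTregs, a log2 difference of -6.22 (SE 0.23, adjusted p = 1.18e-11). *Ifit3* gave 358, 276 and 349 against 3.02, 0 and 3.63, and stood at 2.3 ± 1.4 in resting iTregs. *Gbp2*, a guanylate-binding GTPase induced by interferon-γ, was among the most abundant of the list, at 51598, 50946 and 55652 against 15852, 15932 and 16958 (log2 difference -1.70, SE 0.06, adjusted p = 4.63e-12). In resting iTregs *Ifit1* stood at 9.07 ± 1.48 and *Gbp2* at 4287 ± 237. The *Gbp2* level of restimulated iTregs thus lay between those of resting iTregs and activated Tconvs. In resting Tconvs *Ifit1*, *Ifit3* and *Gbp2* stood at 172 ± 9.13, 190 ± 6.16 and 640 ± 34.8. *Ifit1* and *Ifit3* were thus lower in iTregs than in Tconvs at rest as well, whereas *Gbp2* was higher.

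The promoter windows of *Ifit1*, *Ifit3* and *Gbp2* are shown because these genes carry the finding and hold a match to the core of the interferon-stimulated response element (ISRE), searched as GAAANNGAA on both strands. They are RefSeq windows of 300 bases that span the start of each gene (GRCm38.p6, all plus strand), 5′ to 3′, with matches in capitals. *Ifit1* lies at chr19:34640639-34640938, *Ifit3* at chr19:34583279-34583578 and *Gbp2* at chr3:142620413-142620712.
Ifit1: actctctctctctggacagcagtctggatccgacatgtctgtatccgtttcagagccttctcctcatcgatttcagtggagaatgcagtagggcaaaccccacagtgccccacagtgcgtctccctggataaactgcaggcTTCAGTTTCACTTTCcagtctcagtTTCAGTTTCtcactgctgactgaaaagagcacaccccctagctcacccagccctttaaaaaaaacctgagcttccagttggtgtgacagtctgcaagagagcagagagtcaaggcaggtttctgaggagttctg
Ifit3: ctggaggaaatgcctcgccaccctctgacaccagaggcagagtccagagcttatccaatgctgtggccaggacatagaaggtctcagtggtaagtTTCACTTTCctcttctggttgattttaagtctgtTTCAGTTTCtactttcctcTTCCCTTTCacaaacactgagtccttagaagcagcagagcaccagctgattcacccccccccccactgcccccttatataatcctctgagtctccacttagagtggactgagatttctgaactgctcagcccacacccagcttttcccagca
Gbp2: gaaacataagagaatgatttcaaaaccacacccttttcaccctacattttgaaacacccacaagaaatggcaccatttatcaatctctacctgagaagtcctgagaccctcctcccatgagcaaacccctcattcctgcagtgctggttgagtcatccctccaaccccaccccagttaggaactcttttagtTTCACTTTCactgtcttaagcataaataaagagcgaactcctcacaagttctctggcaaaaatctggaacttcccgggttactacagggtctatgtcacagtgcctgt

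*Ifit1* and *Ifit3* held 3 matches each, of which some overlap in *Ifit1*, and *Gbp2* 1. Of 25 windows found for 19 of the 26 genes, 13 held the motif (52 percent), beside 8.56 percent of all 32851 windows and 7.21 percent of those of the genes tested. A match is only a run of letters and says nothing on binding. The motif is a known feature of such genes and was searched in the letters alone.

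Other members of the group pointed the same way at very different levels. *Irf1*, an interferon-induced factor counted with the Th1 genes, gave 6487, 6406 and 6779 in activated Tconvs and 2085, 2274 and 2259.6 in restimulated iTregs. *Irgm1* and *Igtp*, GTPases that act on membranes of infected cells, were at 5995 ± 721 and 19316 ± 1678 in activated Tconvs and 1445 ± 91.8 and 6850.2 ± 556 in restimulated iTregs. *Oas1a* and *Oasl2*, of the oligoadenylate synthetase family, were lower, with log2 differences of -3.41 and -3.77. The exceptions were *Stat2*, *Ly6a*, *Bst2* and *Isg20*, which did not pass, and *Ly6c2*, which was higher at 275 ± 21.5 against 49.7 ± 4.2. Beyond the list, the largest falls were in genes of related families. *Ifi208*, of a family that binds DNA, gave 187, 157 and 183 normalized counts in activated Tconvs and 0, 0 and 0.908 in restimulated iTregs. Its relative *Ifi209* gave 1271, 1190.2 and 1326 against 5.04, 11.2 and 18.2, and *Ifi214* 209, 189.7 and 228 against 3.02, 0 and 0.908. *Ifit1bl1*, a relative of *Ifit1*, gave 372, 416 and 412 against 0, 3.36 and 0. Of these 4, *Ifi209* alone was clearly above the floor in restimulated iTregs. These genes have close copies in the genome, among which reads can be shared, so their single values are less certain than the direction of the group.

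**Figure D5:**
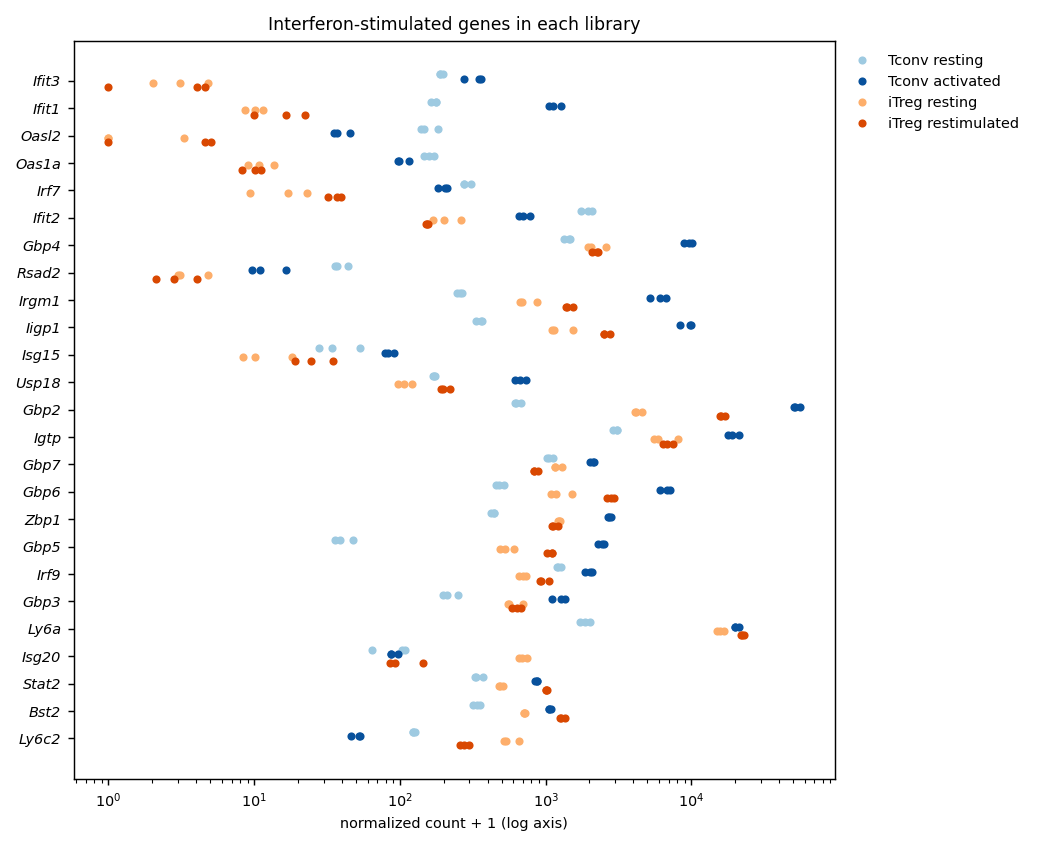
Genes of the interferon-stimulated group are in rows, ordered by their log2 difference, with 1 point per library and the normalized count plus 1 on a log axis. From *Gbp3* upward the restimulated iTreg points lie to the left of the activated Tconv points, and *Ly6c2* at the foot lies to the right.

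The mitosis genes of the list were higher in restimulated iTregs than in activated Tconvs. Most subunits of the helicase that is loaded before S phase did not pass. Of 28 proliferation genes, 23 were higher and 0 lower by limma, with a median log2 difference of 3.46. The count of lower members was 1 at an unadjusted p below 0.05, 0 by edgeR and 0 by DESeq2. *Mki67*, the marker Ki-67, gave 93.5 ± 12.5 in activated Tconvs and 2889 ± 103 in restimulated iTregs. *Ccnb2*, the mitotic cyclin B2, gave 24.2, 19 and 16.3 against 2488, 2495 and 2761, a log2 difference of 6.97 (SE 0.15, adjusted p = 4.33e-14). *Plk1* and *Hmmr*, also mitotic, were higher by 5.69 and 5.43 on the log2 scale. The 5 that did not pass were *Mcm2*, *Mcm3*, *Mcm4*, *Mcm5* and *Mcm7*, all helicase subunits, of which *Mcm3* stood at 6582, 6079 and 6497 against 6548, 6639.8 and 6917. *Mcm6* was higher by 0.56 on the log2 scale. Mitotic genes thus differed and most helicase genes did not pass, and in resting Tconvs both were low, with *Mcm3* at 846 ± 29.6 and *Ccnb2* at 13.4 ± 2.88. *Ccnb2* was already at 3142 ± 150.1 in resting iTregs and stood at 2581 ± 156 in restimulated ones. The change on stimulation was more negative in iTregs than in Tconvs for all 28 proliferation genes.

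Most glycolysis genes of the list followed the same direction. Of 20, 18 were higher and 0 lower by limma, with a median of 1.87. The count of lower members was 0 at an unadjusted p below 0.05, 0 by edgeR and 0 by DESeq2. *Slc16a3*, the lactate exporter, gave 53.9, 75.9 and 63.7 in activated Tconvs and 6053, 6101 and 5991 in restimulated iTregs, a log2 difference of 6.54 (SE 0.10, adjusted p = 3.34e-15). *Slc2a3*, a glucose transporter, gave 142, 147 and 148 against 2689, 2530.4 and 2524, and *Hk2*, hexokinase 2, 222, 211 and 246 against 1927, 1966 and 1954. *Tpi1*, triosephosphate isomerase, was higher by 3.72 on the log2 scale. Resting iTregs already held most of this, with *Slc16a3* at 6196 ± 171. *Slc16a1* and *Pdk1* did not pass.

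The T helper genes named by the study were higher in restimulated iTregs or did not pass. Of 8, 5 were higher (*Il21*, *Il12rb2*, *Gzma*, *Atf3* and *Fasl*) and 0 lower by limma. The count of lower members was 0 at an unadjusted p below 0.05, 0 by edgeR and 0 by DESeq2. The study chose them from this series, so their direction is no independent evidence. *Atf3*, a stress-induced AP-1 partner, gave 220.0, 185 and 225 against 652, 710.5 and 749 (log2 difference 1.74, SE 0.14). *Stat2* and *Stat3* missed the size threshold, with log2 differences of 0.23 and 0.35. Of the 9 genes the study named at regions opened on activation, 5 were higher (*Atf3*, *Lta*, *Tnfsf14*, *Il12rb2* and *Il9*), *Tnfsf8* was lower, and *Irf4*, *Tnfsf4* and *Gzmc* did not pass, though quantile normalization gave 2 lower. *Lta*, lymphotoxin α, gave 1518, 1786 and 1631 against 3824, 3936 and 3996.

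A like level did not mean a like response. The change on stimulation itself differed between the cell types for 5372 genes (47.4 percent), more positive in iTregs for 2595 and more negative for 2777, where the change in iTregs runs from resting to restimulated and that in Tconvs from resting to activated. Tconvs took *Tbx21* from 20.6 ± 4.2 to 172 ± 59, and iTregs took it from 78.9 ± 22.4 to 175 ± 51.9, so that like end levels came with unequal changes (difference of the log2 changes -1.83, SE 0.40, adjusted p = 0.00127). For *Il12rb2* the means were 20.4 ± 2.15 and 1037 ± 9.54 in resting and activated Tconvs, and 806 ± 115 and 4743 ± 459.8 in resting and restimulated iTregs (-3.04, SE 0.15). *Atf3* had no read in resting Tconvs and 195 ± 21.2 normalized counts in resting iTregs (-5.87, SE 0.20), a value that depends on the pseudocount. *Fasl* fell on activation in Tconvs, from 213 ± 28.5 to 66.3 ± 2.24, and rose in iTregs, from 45.6 ± 14.1 to 164 ± 11.2 (3.53, SE 0.26, adjusted p = 3.78e-08). *Gzma* stood at 15.3 ± 1.74 and 6.85 ± 2.91 in resting and activated Tconvs and at 788 ± 23.4 and 2029 ± 31.1 in resting and restimulated iTregs (2.49, SE 0.31). For *Il21* the difference of -0.49 (SE 0.20, adjusted p = 0.0514) missed the threshold, and for *Stat2* and *Stat3* it was -0.29 and 0.15.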

How the data were processed

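RNA was measured in mouse Tconvs and iTregs by a modified SMART-seq2 protocol, which does not keep strand. The authors aligned reads with STAR 2.5.3 and counted genes with RSEM 1.3.0, per the paper's methods. They deposited a normalized signal, gene counts divided by 1 size factor per library. Read numbers were recovered from the smallest value of each library, and 100 percent of values came out whole (tolerance 0.01), and 0 columns were left unused.

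Genes that reached 10 normalized counts in 3 or more of the 12 libraries were fitted by limma 3.58.1 (R 4.3.3) with a trend, on log2 of the normalized count plus 1, and p was adjusted by Benjamini-Hochberg over all genes tested. A log2 difference understates the change of low genes. Changed genes had an adjusted p under 0.05 and a log2 difference past 0.5 in either direction, which are the thresholds of the paper's methods. In reads simulated for restimulated iTregs against activated Tconvs, over 11195 genes, 100 of 100 genes changed by 2 on the log2 scale and 98 of 100 changed by 1 were called, as were 4 unchanged genes. The changed genes were drawn only from genes above a minimum mean level, so recovery of low genes was not tested. They were also a far smaller share of genes than the 45.6 percent changed in the data. Distances were compared by an exact permutation test.

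Alternatives were quantile normalization, size factors of the 12 libraries alone, a pseudocount of 0.1 or 5, no filter or a filter of 100, the replicate number taken as a block, replicate numbers or single libraries left out, only the 6 libraries compared, all 24 libraries, other thresholds, the 500 most variable genes for distances, and edgeR 4.0.16 and DESeq2 1.42.0 on the recovered reads. Replicates differed by more than counting noise, and since the labels do not say that they came from separate mice, p-values may measure technical spread only.

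The comparison and its gene lists were chosen with earlier results of these data known. Genes were named by rule: the 5 largest rises and 5 largest falls with no overlap, all genes the study named, and of each other list up to 4 called members per direction and up to 3 abundant members that did not pass. Marker genes come from fixed lists. A few genes of the lists are counted but not reported here by name. *Ccr7*, *Csf2*, *Gbp2*, *Gbp3*, *Gpr183*, *Igtp*, *Il2rg*, *Il4*, *Il7r*, *Irgm1*, *Isg20*, *Lrrc32*, *Mcm2*, *Mcm4*, *Mcm6*, *Mki67*, *Nt5e* and *Il17f* were added after their values were seen. Positions and exon overlaps came from GENCODE M21 (GRCm38) and promoter windows from RefSeq. RNA-seq libraries of other groups entered 1 alternative only, and the chromatin data were not used here.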

Additional observations from a re-analysis of the deposited data

Results flagged for a closer look

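The change on stimulation differed between iTregs and Tconvs for 5372 genes by limma's test of the difference itself. Among the T helper genes named by the study it was more negative in iTregs for *Il12rb2* (-3.04 on the log2 scale), *Tbx21* (-1.83) and *Atf3* (-5.87), whose levels in resting iTregs were above those in resting Tconvs. It was more positive in iTregs for *Gzma* (2.49) and *Fasl* (3.53), whose means fell in Tconvs on activation and rose in iTregs. No test of the change within 1 cell type is reported here. In Tconvs *Gzma* was low in both states, at means of 15.3 at rest and 6.85 after activation. Each group had 3 samples, so single samples were not tested for standing apart.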

How the results depend on the processing

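The counts of higher and lower genes stayed within 1.5 times under every scaling, pseudocount, filter, choice of libraries and test tried. A log2 difference above 1 gave 1789 higher and 959 lower genes, and 1327 and 1542 genes with a more positive and a more negative response in iTregs. The adjusted p alone gave 3653 lower genes. Leaving out libraries gave 2597 to 2801 higher, 2175 to 2327 lower, 2107 to 2582 more positive and 2502 to 2748 more negative genes. The excess distance of restimulated over resting iTregs was 6.43 and 3.89 log2 units with pseudocounts of 0.1 and 5, 7.01 with no filter, 3.28 with a filter of 100, 3.04 over the 500 most variable genes and 3.86 to 5.57 with libraries left out, the lowest without restimulated iTreg library 2, and its shift along the line was 5.79 percentage points over the 500 most variable genes and 6.83 to 8.64 with libraries left out. Both kept their direction, and the cause of these moves was not tested.

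With the replicate number as a block, 2844 genes were higher and 2395 lower. Log2 values, taken as deviations from the group mean of each gene, correlated at 0.0338 to 0.193 between same-numbered libraries of the 2 groups. Between other libraries the correlations were -0.182 to 0.0603, and 5 of 6 libraries were closest to their own number. Deviations within a group are tied to each other, so these correlations are not independent. Same-numbered libraries were thus somewhat more alike in their deviations, but the labels do not say what the number stands for. It entered as a block in that alternative only, and whether it marks a shared batch was not tested.

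Of 164 genes named by the rule, 115 were called, 7 of which lost the call under at least 1 alternative (*Ascl2*, *Ccl4*, *Cd200*, *Gata3*, *Il9r*, *Ltb* and *Nlrp6*), and 0 changed sign. Over all alternatives, a named gene without a call gained one 11 times. Depth limits the rarest transcripts, such as *Il2*, which stayed near the floor of 3 reads.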

Other observations

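Several genes seldom discussed in T cells were at or near 0 in Tconvs and measured in iTregs, and were named here after their values were seen or by the rule of largest rises. *Ebf1*, a transcription factor of the B cell lineage, gave 0, 0 and 0 normalized counts in resting Tconvs, 0, 0 and 0 in activated Tconvs, 12.6, 22.2 and 33.4 in resting iTregs and 93.7, 97.5 and 89.9 in restimulated iTregs. *Pax5* and *Ms4a1*, which define B cells, were at or under the floor in the same libraries. *Gap43* gave 326, 306 and 493 in resting and 566, 424 and 441 in restimulated iTregs, and *Gja1* 336, 349 and 396 and 1194, 1157 and 1139.8. *Scd1*, which makes monounsaturated fatty acids, was at 489.8 ± 26.4 in resting and 549 ± 27.5 in restimulated iTregs, so it was high before restimulation as well.

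*Cd8b1* gave 112 ± 6.37 in activated Tconvs and 98.8 ± 9.53 in restimulated iTregs, while *Cd8a*, its partner chain, was at 2.81 ± 1.45 and 6.78 ± 1.22. The globin gene *Hbb-bt* was at 14.7 ± 2.27 in resting iTregs and 2.46 ± 2.16 in restimulated ones. The part of these transcripts in any comparison was not tested.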
